A study of Mus musculus with 10 samples.

Results

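Polycomb repressive complex 2 (PRC2) is a histone methyltransferase, and the genes described here encode 10 of its subunits. They are the catalytic subunits Ezh2 and Ezh1, the core subunits Eed, Suz12, Rbbp4 and Rbbp7, and the accessory subunits Jarid2, Aebp2, Mtf2 and Phf19. They were taken as all probe sets of the array whose symbol is one of these names, which gave 34 probe sets of 37762 with 1 symbol and 10 genes of 20564. Probe sets were matched by gene name and not by their values, although the members were chosen with earlier results of these data known. The samples were sorted bone marrow cells of mice with acute myeloid leukaemia driven by MLL-AF9, a fusion oncogene, and each was hybridised to 1 expression array.

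The groups were 3 WT, 4 Ezh2-null and 3 Eed-null samples, all of the C57B/6 background. In every group, WT included, the leukaemia carried a retrovirus with MLL-AF9 and GFP, 100000 cells of leukaemic colonies that had been replated were transplanted into recipients given 600 cGy, and pIpC was injected 2 to 3 weeks later to switch on Cre. Cells were sorted for GFP, for YFP as a mark of Cre activity, and for exclusion of propidium iodide, so WT cells had also seen Cre. The labels do not name the Cre driver or the exons deleted, nor do they say how many donors, colonies or mice stand behind the arrays, although the submitters call these biological replicates. P-values therefore measure the spread between these arrays.

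PRC2 places methyl groups on lysine 27 of histone H3, a mark of silenced developmental genes. Ezh2 or Ezh1 carries the catalytic SET domain, Eed binds the finished mark and stimulates the enzyme, and Suz12 is the scaffold on which the core is built. Accessory subunits sort the complex into variant forms, with Mtf2 or Phf19 in PRC2.1 and Jarid2 with Aebp2 in PRC2.2. In dividing haematopoietic cells Ezh2 is the main catalytic subunit, while Ezh1 is the more prominent one in resting cells.

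Values are log2 of RMA intensities, with array medians between 7.22 and 7.29, and the number of arrays limits the precision. Myeloid markers fitted the labelled cells, with an Mpo level (a granule peroxidase) of 12.58 to 13.55 and a mean over 8 myeloid leukaemia genes of 10.66 to 11.24 on the 10 arrays. Marker means of B, T and NK, erythroid and stromal cells lay between 6.44 and 7.17, below the array medians. By gene, 2 of 5 B cell, 5 of 7 T and NK cell, 4 of 5 erythroid and 4 of 6 stromal markers had means under 7.27. Among those above, the stromal gene Pdgfrb read 8.32 to 9.34, and the B cell gene Cd79b reached 9.63 on Eed-null replicate 2. WT replicate 3 stood apart in maturation, with a mean over 12 granulocyte genes of 10.90 against 12.34 to 13.29 on the other arrays. Of the 34 PRC2 probe sets, 29 lay above the median probe set mean of 7.27 and 10 above the 90th percentile.

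The deleted genes were examined first. Ezh2 has 1 probe set (1416544_at). It read 10.25, 9.35 and 10.44 on the WT arrays, 9.19, 9.21, 9.36 and 8.91 on the Ezh2-null arrays and 9.60, 9.71 and 9.49 on the Eed-null arrays. WT replicate 2 read just below the highest Ezh2-null array, so that these groups overlapped, whereas every Eed-null array was above every Ezh2-null array. The mean was 9.17 ± 0.19 (SD, n = 4) in Ezh2-null cells and 9.81 ± 0.44 (SD, n = 6) on all other arrays, and an exact two-sided permutation test gave p = 0.0190, where the smallest possible value is 0.00952. Against WT alone the difference was -0.84 (SE 0.25, 95% interval -1.40 to -0.29), or 1.80-fold lower, and limma gave an adjusted p of 1.00 over all probe sets. Where the probes lie relative to the deleted exons is not known here, so the signal that remained does not show how complete the deletion was.

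Eed has 2 probe sets. The bright one (1448653_at) read 10.52, 10.20 and 10.65 on the WT arrays, 10.79, 10.24, 10.40 and 10.30 on the Ezh2-null arrays and 8.69, 8.34 and 8.67 on the Eed-null arrays. The 3 Eed-null arrays were far below all others. In Eed-null cells it fell by 1.89 against WT (SE 0.20, 95% interval -2.34 to -1.44), which is 3.71-fold, with an adjusted p of 0.0100 in limma, which became 0.105 when the Ezh2-null arrays were left out of the fit. The exact two-sided permutation test against the other 7 arrays gave p = 0.0167, the smallest value it can give. The dim probe set (1453830_at) had values of 5.62 to 6.14 on the WT arrays, 5.90 to 6.10 on the Ezh2-null arrays and 6.04 to 6.41 on the Eed-null arrays. It was not lower in Eed-null cells (difference from WT 0.28, SE 0.16, limma adjusted p = 0.568), so the gene's probe sets disagreed. With their mean as the gene's value, Eed differed by -0.81 from WT (adjusted p = 0.0913 in limma). In a mixed sample fewer cells with a transcript and less transcript per cell cannot be told apart.

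**Figure D1:**
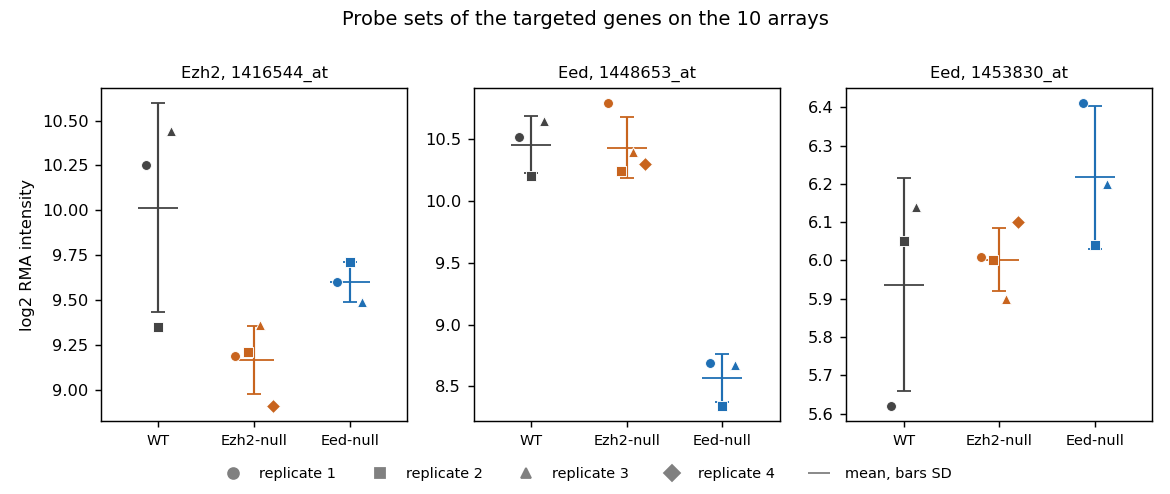
Log2 RMA intensity of the Ezh2 probe set and both Eed probe sets on each array, by genotype; the horizontal line is the group mean and the bars the SD (n = 3, 4 and 3). For Eed 1448653_at the Eed-null arrays lie between 8.34 and 8.69 and all others at 10.20 or above, while for Ezh2 WT replicate 2 at 9.35 overlaps the Ezh2-null arrays.

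Each deleted gene was also compared between the 2 null genotypes. Eed 1448653_at was lower in Eed-null than in Ezh2-null cells by 3.64-fold (difference -1.86, SE 0.19, limma adjusted p = 0.00609). That call was lost with the mean of the gene's probe sets (-0.83, limma adjusted p = 0.0718) and with the replicate number as a block (limma adjusted p = 0.0551). It was also lost with a cell cycle score, the mean level of 30 cell cycle genes, as a covariate (limma adjusted p = 0.0525). In Ezh2-null cells Eed 1448653_at differed from WT by -0.03 (95% interval -0.45 to 0.40). Ezh2 in Eed-null cells had a mean of 9.60 ± 0.11 (SD, n = 3), between those of WT, 10.01 ± 0.58 (SD, n = 3), and Ezh2-null cells. Its differences, -0.41 from WT (SE 0.27, limma adjusted p = 0.620) and 0.43 from Ezh2-null cells (SE 0.25, limma adjusted p = 0.612), did not pass. The difference from WT hung on single WT arrays, since it was -0.74 without WT replicate 2 and -0.20 without WT replicate 3.

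Ezh1, the other methyltransferase, which can also place the mark, has 4 probe sets. The brightest (1418290_a_at) read 9.60, 9.39 and 9.23 on the WT arrays, 9.25, 8.95, 9.59 and 9.22 on the Ezh2-null arrays and 9.49, 9.62 and 9.43 on the Eed-null arrays. The groups overlapped. The difference of Ezh2-null from WT was -0.15 with a 95% interval of -0.56 to 0.25, so a higher level by more than 0.25 log2 units lay outside it. The next (1449023_a_at) read 8.76, 8.24 and 8.34, then 8.56, 7.89, 8.25 and 8.11, then 8.39, 8.61 and 8.38 in the same order of groups. It differed by -0.24 in Ezh2-null cells (95% interval -0.69 to 0.20) and by 0.02 in Eed-null cells (95% interval -0.46 to 0.49), again with overlap. For 1429630_at the Eed-null arrays were tightly grouped at 7.98, 7.96 and 7.97, above every Ezh2-null array (7.11 to 7.85), although the difference of 0.33 did not pass (SE 0.25, limma adjusted p = 0.701). On the dimmest probe set, 1429629_at, WT replicate 2 at 7.47 was far above WT replicates 1 and 3 at 5.68 and 5.41. Its difference of -0.63 between Ezh2-null and WT became 0.01 without that array.

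Suz12, without which the core does not hold together, has 5 probe sets with group means from 6.41 to 11.22. The brightest (1427253_s_at) read 11.12, 10.99 and 11.54 on the WT arrays, 11.38, 11.15, 11.27 and 10.99 on the Ezh2-null arrays and 11.20, 10.99 and 10.93 on the Eed-null arrays. All groups overlapped there. Over its probe sets the Ezh2-null differences from WT ran from -0.14 to 0.25 and the Eed-null differences from -0.36 to 0.04, and none passed. Between the null genotypes, 1420021_s_at and 1449661_at did not overlap, being lower in Eed-null cells by 0.24 (SE 0.17) and 0.34 (SE 0.28), with adjusted p-values in limma of 0.684 and 0.724. On 1449661_at the WT arrays spread from 8.31 to 9.77, more than either null group.

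Rbbp4 and Rbbp7 are WD-repeat histone chaperones that also serve in deacetylase, chromatin assembly and other complexes. The brightest Rbbp4 probe set (1434892_x_at) was among the top of the array and nearly flat, at 13.09, 13.17 and 13.27 on the WT arrays, 13.03, 13.25, 13.29 and 13.15 on the Ezh2-null arrays and 13.17, 13.14 and 12.95 on the Eed-null arrays. Its suffix marks probes that can also match other transcripts. A second Rbbp4 probe set (1454875_a_at) read 11.41, 11.37 and 11.66 on the WT arrays, 11.45, 11.84, 11.34 and 11.46 on the Ezh2-null arrays and 10.94, 11.11 and 10.92 on the Eed-null arrays. Here all 3 Eed-null arrays lay below the other 7. The differences were -0.49 from WT (SE 0.16, 95% interval -0.84 to -0.13, limma adjusted p = 0.330) and -0.53 from Ezh2-null cells (SE 0.15, limma adjusted p = 0.338), so neither passed over all probe sets. The other Rbbp4 probe sets, 1454791_a_at and 1456260_at, differed by -0.28 (SE 0.40) and -0.48 (SE 0.32) between Eed-null and WT, with overlap.

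Rbbp7 (1415775_at) read 11.16, 11.22 and 11.80 on the WT arrays, 11.35, 11.58, 11.40 and 11.15 on the Ezh2-null arrays and 11.06, 11.40 and 10.99 on the Eed-null arrays. Its second probe set (1456227_x_at) ran from 10.62 to 11.44 on the WT arrays, 10.79 to 11.15 on the Ezh2-null arrays and 10.39 to 11.04 on the Eed-null arrays. WT replicate 3 was the highest array on both, and the groups overlapped. The Eed-null differences from WT were -0.25 (SE 0.20) and -0.21 (SE 0.24) and those of Ezh2-null cells -0.02 and 0.04, all without a call.

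Single probe sets of both PRC2.2 genes had Eed-null differences from WT larger in size than those of their brightest probe sets, and none was called. This was not particular to them. The same held for Mtf2 (-0.36 on 1449115_at against -0.07), Rbbp4 (-0.49 on 1454875_a_at against -0.09) and Suz12 (-0.36 on 1452364_at against -0.18). For Ezh1 it held in opposite directions (0.29 on 1429630_at and -0.26 on 1429629_at against 0.11). It did not hold for Rbbp7, Phf19 or Eed. Jarid2, a Jumonji-family protein without demethylase activity that binds and stimulates PRC2, has 3 probe sets. On 1450710_at it read 10.20, 10.06 and 9.82 on the WT arrays, 10.22, 10.04, 10.10 and 9.83 on the Ezh2-null arrays and 8.16, 9.46 and 9.65 on the Eed-null arrays. Every Eed-null array was lower than the other 7, but replicate 1 was far lower than replicates 2 and 3. The difference from WT was -0.94 (SE 0.34, limma adjusted p = 0.369) and became -0.47 without Eed-null replicate 1; from Ezh2-null cells it was -0.96 (SE 0.31, limma adjusted p = 0.408) and became -0.50. A second probe set (1422697_s_at) also did not overlap with WT, at 8.13, 8.74 and 8.68 in Eed-null against 8.91, 9.40 and 8.77 in WT cells. Its difference of -0.51 (SE 0.26, limma adjusted p = 0.515) was -0.32 without either Eed-null replicate 1 or WT replicate 2. The brightest (1422698_s_at) overlapped between all groups, with an Eed-null difference from WT of -0.22 (SE 0.25). The Ezh2-null differences over the 3 probe sets were -0.27 to 0.02.

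Aebp2, a zinc-finger protein that stabilises PRC2.2, has 5 probe sets, and they did not move as one. On 1435070_at it read 8.20, 8.52 and 8.33 on the WT arrays, 8.25, 8.24, 8.20 and 8.38 on the Ezh2-null arrays and 7.05, 8.07 and 7.48 on the Eed-null arrays. The WT and Ezh2-null arrays lay close together and all Eed-null arrays below them. The difference from WT was -0.81 (SE 0.24, 95% interval -1.34 to -0.29, limma adjusted p = 0.282) and that from Ezh2-null cells -0.73 (SE 0.22, limma adjusted p = 0.375). The probe set 1455616_at, at 7.70, 7.60 and 7.42 in Eed-null against 7.71, 8.08 and 8.16 in WT cells, was also without overlap (difference -0.42, SE 0.19, limma adjusted p = 0.474). The brightest probe set (1434080_at) showed neither, with Eed-null values of 10.37 to 10.61 inside the WT and Ezh2-null ranges and a difference from WT of 0.01 (95% interval -0.41 to 0.43). On 1437743_at Eed-null replicate 1 was the highest of the 10 arrays at 9.29 and replicates 2 and 3 the lowest at 7.40 and 7.57; the difference of -0.65 from WT ranged from -1.26 to -0.31 as single arrays were left out. The dimmest one (1421021_at) was the only PRC2 probe set without overlap between Ezh2-null and WT, at 6.92, 6.74, 7.42 and 7.01 against 6.61, 6.41 and 6.63 (difference 0.47, SE 0.18, limma adjusted p = 1.00).

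**Figure D2:**
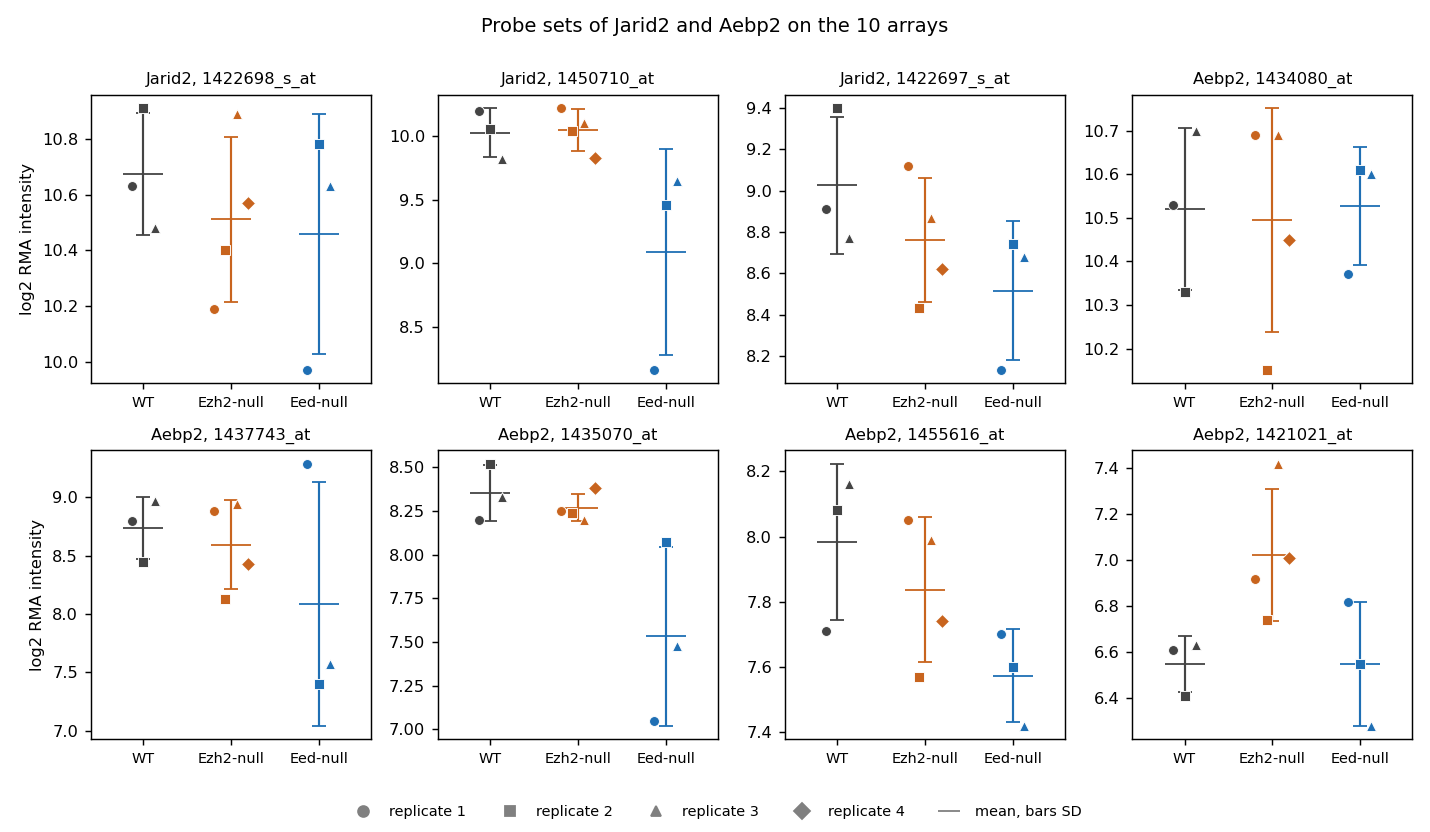
Log2 RMA intensity of the 3 Jarid2 and 5 Aebp2 probe sets on each array, by genotype, each panel with its own axis; the horizontal line is the group mean and the bars the SD (n = 3, 4 and 3). Jarid2 1450710_at and Aebp2 1435070_at have all Eed-null arrays lowest, with replicate 1 the lowest of them at 8.16 and 7.05, while Aebp2 1434080_at lies at one level in all groups.

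Of the PRC2.1 genes, Mtf2, which recruits PRC2 to unmethylated CpG islands, has 6 probe sets. Its brightest (1418516_at) read 10.59, 9.78 and 10.73 on the WT arrays, 10.41, 10.34, 10.38 and 10.39 on the Ezh2-null arrays and 10.29, 10.36 and 10.23 on the Eed-null arrays. The 2 null groups were tight and both lay inside the WT range, in which replicate 2 was the lowest. Over the 6 probe sets the Ezh2-null differences from WT were -0.16 to 0.01 and the Eed-null differences -0.36 to 0.11, none called. Phf19, which reads a methyl mark of active genes through its Tudor domain, read 7.89, 8.16 and 7.93 on the WT arrays, 7.64, 7.75, 7.96 and 7.70 on the Ezh2-null arrays and 8.05, 7.53 and 7.54 on the Eed-null arrays on 1427920_at. The groups overlapped, with differences of -0.23 (SE 0.17) and -0.28 (SE 0.19) from WT. Its other probe set (1431857_at) differed by -0.01 and -0.10.

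Counted over the 34 PRC2 probe sets, none passed an adjusted p under 0.05 between Ezh2-null and WT, where 0.0265% of all probe sets did (10 of 37762). At an unadjusted p under 0.05 there were 2, Ezh2 and Aebp2 1421021_at, against 3.86% of all probe sets, and 1 did not overlap, being higher, against 5.29% without overlap in either direction (2.45% higher and 2.84% lower). Between Eed-null and WT 1 passed, Eed itself, against 0.114% of all (43 probe sets), and 4 had an unadjusted p under 0.05 against 10.8%. Probe sets without overlap numbered 6, all lower in Eed-null cells, against 13.2% of all probe sets without overlap, 5.92% lower and 7.29% higher. Between Eed-null and Ezh2-null cells 1 passed, again Eed, against 0.0662% of all (25 probe sets), 5 had an unadjusted p under 0.05 against 9.43%, and 6 lower and 2 higher ones did not overlap, against 4.28% and 6.38% of all and 10.7% in either direction. Eed was thus the only subunit gene called in any of these comparisons.

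By sign, 26 of the 34 differences between Eed-null and WT were negative, with a median of -0.23 against 0.02 over all probe sets. For Ezh2-null against WT 24 were negative and the median was -0.05 against -0.017 over all. Between the null genotypes 24 were negative, with a median of -0.13 against 0.03. These counts include the deleted genes themselves, and the share of negative differences over all probe sets was not counted. Most PRC2 probe sets are bright. With the lowest 40% of probe sets left out, the median over all was -0.02 in each Eed-null comparison and -0.01 for Ezh2-null against WT. Both null groups are set against the same WT arrays, and probe sets of a gene share its transcripts, so these are counts and not independent evidence. WT replicate 3 was the highest WT array on 22 of the 34 probe sets, against 32.2% of all probe sets, and WT replicate 2 the lowest on 18, against 30.2%. The median SD of the PRC2 probe sets was 0.27 on the WT arrays, 0.20 on the Ezh2-null arrays and 0.21 on the Eed-null arrays, against 0.22, 0.19 and 0.23 over all probe sets.

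**Figure D3:**
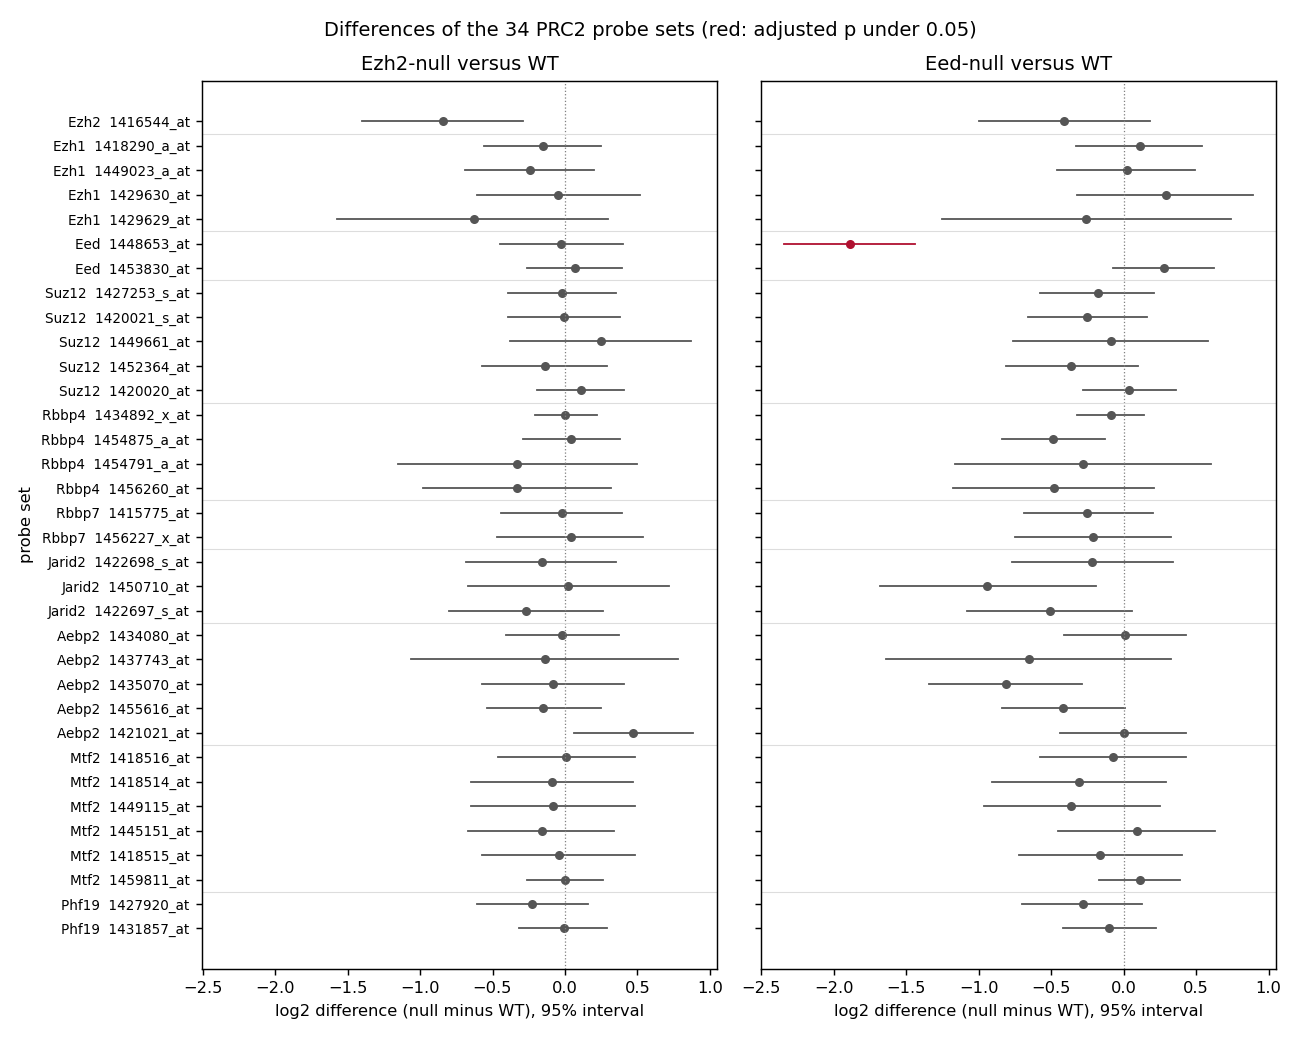
Log2 difference with its 95% interval for each of the 34 PRC2 probe sets, Ezh2-null minus WT on the left and Eed-null minus WT on the right; red marks an adjusted p under 0.05. Only Eed 1448653_at in Eed-null cells, at -1.89, is red, and most intervals of both panels span 0.

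Several PRC2 genes are known to follow proliferation, so cell division genes were set beside them. Of 30 cell cycle genes none was called. In Eed-null cells all 30 had negative differences from WT on their brightest probe sets, with a median of -0.47, and 22 of their 69 probe sets were lower at an unadjusted p under 0.05, against 10.8% of all probe sets in either direction. In Ezh2-null cells 18 of the differences were negative and 12 positive, with a median of -0.02. The mean over the 30 genes, used as a cell cycle score, was 9.80 to 10.29 on the WT arrays, 9.69 to 10.25 on the Ezh2-null arrays and 9.0 to 9.89 on the Eed-null arrays. Monocyte and macrophage genes went the same way, with a mean over 9 genes of 9.59 to 10.30 on the WT arrays, 9.08 to 9.99 on the Ezh2-null arrays and 8.20 to 9.58 on the Eed-null arrays, and Eed-null replicate 1 the lowest array; their part in the PRC2 values was not tested. With the cell cycle score as a covariate, the Eed-null difference from WT was -0.29 for Rbbp4 1454875_a_at and -1.11 for Jarid2 1450710_at. It was -0.67 (SE 0.32) for Aebp2 1435070_at and -0.06 (SE 0.32) for Ezh2, and none of these was called. Eed 1448653_at then differed by -2.04, with a limma adjusted p of 0.0780. The score was itself lower on most Eed-null arrays, so its part and that of the genotype cannot be told apart.

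The relation with the score was computed for the brightest probe set of each of the 10 genes over the 10 arrays, a choice made after the values were seen. Rbbp4 had a Pearson r of 0.806 (permutation p = 0.0048, adjusted over the 10 genes 0.037) and a Spearman rho of 0.673 (permutation p = 0.0395, adjusted 0.198). Rbbp7 had an r of 0.785 (permutation p = 0.0074, adjusted 0.037) and a rho of 0.770 (permutation p = 0.0122, adjusted 0.122). Both genes were high on arrays with high cell cycle genes, but the rank correlations did not pass after adjustment. The Rbbp4 probe set, whose suffix allows matches to other transcripts, spanned only 0.34 log2 units over the 10 arrays. The correlation with the score was not computed for other probe sets of these genes or for genes outside the set. How common such r values are on the array is therefore not known. WT replicate 3, with the highest Rbbp7 and cell cycle score, also had the lowest granulocyte score, and with that score as a covariate the Rbbp7 difference from WT was -0.02 in Eed-null and 0.24 in Ezh2-null cells, neither called. Without the 2 arrays farthest from the median score, Eed-null replicates 3 and 1, r was 0.806 and 0.689. Within genotypes r was 0.792 and 0.732, with exact permutation p-values of 0.0266 and 0.0336 and an adjusted value of 0.127 for each. For Ezh2 r was 0.251 over all arrays (permutation p = 0.484) and 0.557 within genotypes (exact permutation p = 0.0382, adjusted 0.127). Eed falls into separate groups by its deletion, so only its r within genotypes is given, -0.355 (exact permutation p = 0.355). For the other 6 genes r was between -0.265 and 0.476.

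**Figure D4:**
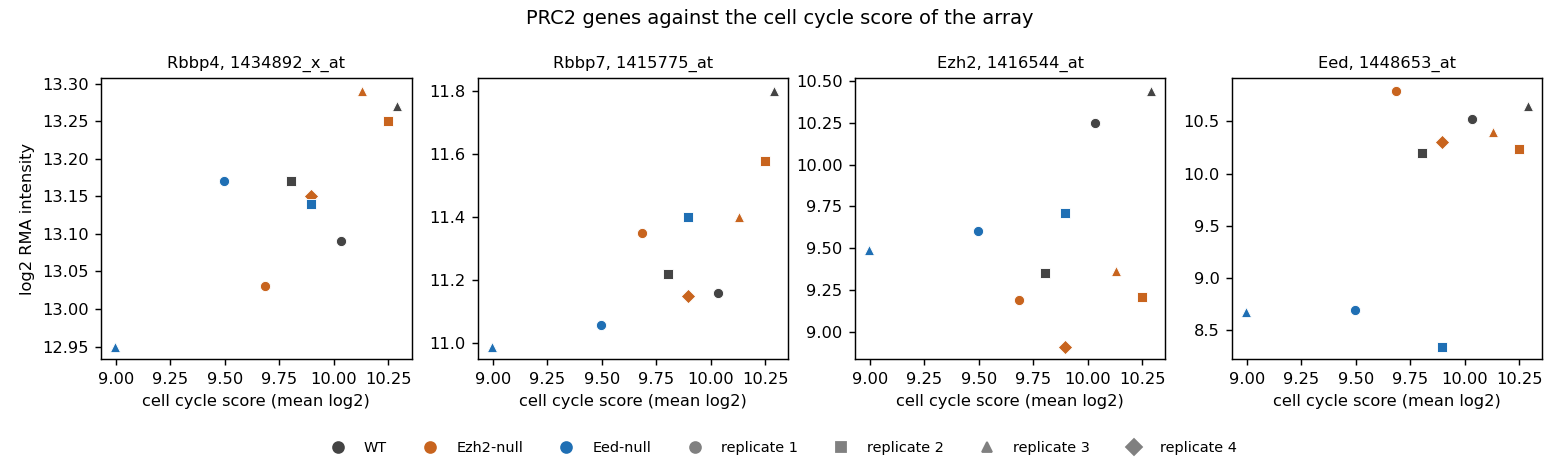
Log2 RMA intensity of Rbbp4, Rbbp7, Ezh2 and Eed (brightest probe set of each) against the cell cycle score, the mean log2 level of 30 cell cycle genes, with 1 point per array, colour for genotype and shape for replicate. Rbbp4 and Rbbp7 are high where the score is high (r of 0.806 and 0.785), whereas the Eed-null arrays lie below all others for Eed, at scores of 9.0 to 9.89, and WT replicate 2 lies among the Ezh2-null arrays for Ezh2.

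The promoters of Rbbp4 and Rbbp7, the genes with the highest r, and of 2 other core genes are shown because proliferation genes are often read by E2F factors and by NF-Y, which binds CCAAT boxes. Each is the stretch of 250 bases before a start site given for the gene in RefSeq (GRCm38.p6), 5′ to 3′ on the gene's strand. The Ezh2 site lies inside the annotated span of the gene, so most of that window overlaps the gene, while the other windows end where the gene begins. Capitals mark CCAAT on either strand and the E2F words TTTCCCGC, TTTCGCGC, TTTGGCGC and TTTGCCGC on either strand. Ezh2 lies at chr6:47595031-47595280 (minus strand), Suz12 at chr11:79992856-79993105 (plus strand), Rbbp4 at chr4:129335371-129335620 (minus strand) and Rbbp7 at chrX:162760122-162760371 (plus strand).
Ezh2: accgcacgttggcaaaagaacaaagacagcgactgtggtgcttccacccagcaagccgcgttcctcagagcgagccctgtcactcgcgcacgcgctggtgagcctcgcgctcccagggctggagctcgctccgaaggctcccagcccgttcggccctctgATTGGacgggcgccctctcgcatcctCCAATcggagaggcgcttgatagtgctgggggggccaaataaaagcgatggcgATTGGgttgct
Suz12: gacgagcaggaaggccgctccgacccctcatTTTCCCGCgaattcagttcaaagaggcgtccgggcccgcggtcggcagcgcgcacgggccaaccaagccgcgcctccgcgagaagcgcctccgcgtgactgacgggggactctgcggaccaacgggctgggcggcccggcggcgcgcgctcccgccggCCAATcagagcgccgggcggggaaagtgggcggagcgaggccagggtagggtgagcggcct
Rbbp4: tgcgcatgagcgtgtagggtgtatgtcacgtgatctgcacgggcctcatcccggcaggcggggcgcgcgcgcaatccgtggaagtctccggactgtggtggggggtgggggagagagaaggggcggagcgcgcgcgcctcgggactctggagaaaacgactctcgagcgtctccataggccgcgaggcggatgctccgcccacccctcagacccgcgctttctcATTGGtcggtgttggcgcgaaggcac
Rbbp7: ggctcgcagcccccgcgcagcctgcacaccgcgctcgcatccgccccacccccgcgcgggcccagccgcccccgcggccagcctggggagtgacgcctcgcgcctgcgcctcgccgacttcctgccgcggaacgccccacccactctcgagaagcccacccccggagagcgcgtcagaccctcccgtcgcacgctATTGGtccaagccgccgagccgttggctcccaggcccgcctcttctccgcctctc

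All 10 genes matched the promoter table, with 14 promoters. An E2F word was present in 2 of them, those of Suz12 and Phf19, against 1.86% of all 32851 promoters. CCAAT was present in 7, against 33.8% of all promoters. Ezh2 had 3 copies, while Rbbp4, Rbbp7, Suz12 and 1 promoter each of Jarid2, Mtf2 and Aebp2 had 1. The Eed and Ezh1 promoters held neither. These matches describe the letters in the windows only.

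Genes that work with PRC2 subunits outside the set were also counted. Of 7 further PRC2-associated genes (Phf1, Epop, Ezhip, Lcor, Lcorl, Elob and Eloc, 15 probe sets), none was called in any comparison. The lowest adjusted p against WT in Eed-null cells was 0.278, for Lcorl (1439272_at), a ligand-dependent corepressor-like gene whose locus also encodes the PRC2 partner PALI2. Its means were 8.02 on the WT arrays, 7.89 on the Ezh2-null arrays and 7.36 on the Eed-null arrays (Eed-null difference -0.65, SE 0.19). Phf1, the third Polycomb-like protein beside Mtf2 and Phf19, differed by 0.25 (SE 0.24) between Ezh2-null and WT.

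Partners of Rbbp4 and Rbbp7 in other complexes were measured for 22 of 23 listed genes (54 probe sets), and none was called. At an unadjusted p under 0.05, 5 of the 54 were lower in Eed-null cells than in WT and none higher. Over all probe sets 10.8% passed in either direction, so by that count the list does not stand out. The share of all probe sets that were lower at this p was not counted. The 4 genes with the smallest p are given as values. Lin9 and Lin54, which belong to the MuvB complex that controls cell cycle genes, had differences of -1.10 (SE 0.26, limma adjusted p = 0.207) and -1.02 (SE 0.23, limma adjusted p = 0.190). Hat1, the histone acetyltransferase that binds Rbbp7, differed by -0.86 (SE 0.34), and Sap18, a subunit of the SIN3 deacetylase complex, by -1.23 (SE 0.41). The median over the 22 genes was 0.03.

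The genes whose levels over the 10 arrays were most like those of Eed were Trim12a (Pearson r 0.978), Trim30d (0.960), Trim5 (0.938) and Ccl25 (0.936), as a description. Trim12a read 9.58, 9.55 and 9.09 on the WT arrays, 10.16, 9.02, 9.38 and 9.57 on the Ezh2-null arrays and 5.44, 5.25 and 5.07 on the Eed-null arrays. Like Eed, the 3 Trim genes are on chromosome 7 in the RefSeq table, and Ccl25 is on chromosome 8. Trim genes of this family can share probe sequence, so which of them a probe set measures is uncertain. The genes most like Ezh2, on chromosome 6, were Nipbl (0.927), Sptssa (0.889), Msl3 (0.883) and Hmgn3 (0.875), on chromosomes 15, 12, X and 9.

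The nearest measured genes on the chromosome were not called on either side of Ezh2 or Eed. Next to Ezh2, Cul1, a ubiquitin ligase scaffold, averaged 10.34 with the WT genotype, 10.28 with Ezh2 deleted and 10.36 with Eed deleted, and Pdia4, a disulfide isomerase of the endoplasmic reticulum, averaged 9.78, 9.10 and 9.48. Pdia4 differed by -0.69 (SE 0.29, limma adjusted p = 1.00) between Ezh2-null and WT, in the direction of Ezh2. Next to Eed, Hikeshi, a nuclear import factor, had means of 8.98, 9.22 and 8.62 in the same order, and the gene 2310010J17Rik had means of 7.43, 7.68 and 8.47. The latter differed by 1.04 between Eed-null and WT (SE 0.27, limma adjusted p = 0.241), in the direction opposite to Eed. Picalm, an endocytic adaptor gene, had means of 9.51, 9.66 and 9.62.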

How the data were processed

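RNA from 10 samples of sorted leukaemic bone marrow cells was extracted with Trizol, amplified with a NuGEN whole-transcriptome kit and labelled with biotin, per the labels' protocols. The deposited intensity values came from RMA, which the submitters' processing notes name without a version. They were on a linear scale, judged from their range, and were turned into log2 values here with a floor of 1 that changed none of them. Of 45101 probe sets, 64 controls, 5820 without a symbol, 1399 with several and 56 whose symbol had become a date were not tested. A second deposited table of intensities, holding the WT and Ezh2-null arrays adjusted with ComBat, per the file header, served as an alternative, with 16 values below 0 set to the floor; its 9 columns that match no sample here were not used.

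All 37762 probe sets were fitted with limma 3.58.1 in R 4.3.3 (1 coefficient per genotype, all 10 arrays, eBayes with trend, two-sided), with Benjamini-Hochberg adjustment over all of them, and called at an adjusted p under 0.05. SE is limma's moderated standard error. No overlap means that every array of one group exceeds every array of the other. Deleted genes were also tested by exact permutation over all 10 arrays, because 3 arrays against 3 cannot give a p under 0.1, or against 4 one under 0.0571. Correlations used exact permutation within genotypes and 100000 resamples over all arrays (scipy 1.17.1). The fit was tested on simulated data. The members and lists were chosen with earlier results of these data known. Named are all member probe sets, up to 4 genes of smallest p per list, 3 measured neighbours on each side of Ezh2 and Eed, and the 4 genes most correlated with each among probe sets above the median level. Alternatives were the samples in the fit, the replicate number as a block, 1 probe set or the mean of probe sets per gene, the lowest 40% left out, quantile normalization, a pseudocount of 32, eBayes without trend, granulocyte or cell cycle scores as covariates, the ComBat table and each array left out.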

Additional observations from a re-analysis of the deposited data

Results flagged for a closer look

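The effects of the null genotypes against WT differed for Eed 1448653_at alone among the PRC2 probe sets, by -1.86 (Eed-null minus Ezh2-null). The WT arrays cancel in this difference, so it is the comparison of Eed-null with Ezh2-null cells already reported and no further test.

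In the Ezh2-null group, the only one with 4 arrays, 3 of the 34 probe sets had an array far from the others by Dixon's test, where chance gives about 1 in 20. Ezh1 1429630_at was low at 7.11 in replicate 3, against 7.74 to 7.85 in the others. Rbbp4 1454791_a_at was low at 8.71 in replicate 1, against 10.01 to 10.22, and Mtf2 1449115_at was high at 10.44 in replicate 2, against 9.70 to 9.82. A different array was concerned in each case.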

How the results depend on the processing

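The number of probe sets called moved with the setting. Between Ezh2-null and WT it was 10, but 5 with 1 probe set per gene, 6 with the lowest 40% left out, 5 with the granulocyte score and 5 with the cell cycle score as a covariate, and 2 to 12 with single arrays left out. Between Eed-null and WT it was 43, but 1 with only the groups compared in the fit, 27 with 1 probe set per gene, 7 with the cell cycle score, and 16 to 53 with single arrays left out. Between the null genotypes it was 25, but 16 with 1 probe set per gene, 39 with the granulocyte score, 4 with the cell cycle score, and 13 to 51 with single arrays left out. Under the replicate block these counts were 0 (limma, with 1215 at an unadjusted p under 0.05), 5 and 4. Whether the replicate numbers pair the arrays is not known. Deviations of same-numbered arrays (9 pairs) correlated at -0.202 to 0.345 and those of other arrays at -0.298 to 0.349. These ranges overlap, and so few pairs cannot decide it.

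The count of PRC2 probe sets called in the Eed-null comparisons, 1 each, became 0 with the replicate block, the mean of probe sets per gene and the cell cycle score, and against WT also with only the groups compared. Against WT the Eed difference (1448653_at) was then -1.89 with the block (adjusted p = 0.0562), -0.81 with the mean, -2.04 with the score and -1.89 with only the groups compared (adjusted p = 0.105); against Ezh2-null cells it was -1.91 with the block (adjusted p = 0.0551), -0.83 with the mean (0.0718) and -2.0 with the score (0.0525), all in limma. The mean takes in the probe set that was not lower; the cause of the other losses was not tested. With single arrays left out it stayed called, at -2.02 to -1.78 and -1.93 to -1.75, and the count of PRC2 probe sets called stayed at 1 in both, and at 0 for Ezh2-null against WT. In the exact permutation test the Eed difference was -1.94 to -1.76; without an Eed-null array p was 0.0556, the smallest that so few arrays allow. For 1453830_at it was 0.14 to 0.33. The Ezh2 difference was -0.73 to -0.51 in that test, and in limma -1.18 to -0.63 for Ezh2-null and -0.74 to -0.20 for Eed-null cells against WT. Over 21 alternatives Ezh2 was never called in Ezh2-null cells (adjusted p 0.263 to 1.00). Of 1837 values of single PRC2 probe sets under alternatives, 133 changed sign, none of them called.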
